A study of Rattus norvegicus with 23 samples.

Results

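The glucocorticoid and fasting-responsive genes examined here are 9 genes of the 15353 named on the array: Nr3c1, Fkbp5, Tsc22d3, Dusp1, Sgk1, Klf9, Ddit4, Txnip and Zbtb16. They were chosen by name, as every probe that is not a control and whose gene name in the scanner files is one of these (Sgk1 stands there under its older name, Sgk). The rule found 15 probes, of which 13 probes of 8 genes were bright enough to be tested.

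Glucocorticoids, which in the rat means mainly corticosterone, enter cells and bind the glucocorticoid receptor, the product of Nr3c1. The hormone-bound receptor moves to the nucleus and raises transcription of a set of early targets, among them Fkbp5, Tsc22d3, Dusp1, Sgk1, Klf9, Ddit4 and Zbtb16. Fkbp5 encodes a chaperone partner that lowers the receptor's affinity for hormone, so it closes a feedback loop, and its transcript in blood is widely used as a readout of glucocorticoid exposure. Several of these genes also answer to food supply: Ddit4 restrains the growth kinase mTORC1, and Txnip, which limits glucose uptake and binds thioredoxin, follows glucose inside the cell. In lymphocytes glucocorticoids redistribute cells between blood and tissues as well as acting on transcription.

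The cells were peripheral blood mononuclear cells (PBMC), isolated on a Ficoll gradient from trunk blood of Wistar rat pups killed by decapitation at 21 days of age, at weaning, while feeding freely. The groups were 5 male pups of calorie-restricted dams (CR males), 6 male pups of control dams (control males), 6 female pups of calorie-restricted dams (CR females) and 6 female pups of control dams (control females). Restricted dams received 20% fewer calories from the day after delivery until weaning and control dams ate standard chow freely; the pups themselves were not fasted or treated with hormone. The labels give 11 control and 5 restricted dams and do not tie pups to litters. The 6 CR females outnumber the 5 restricted dams, so some of them shared a dam. Pups of the other groups can share one as well. The tests treat pups as independent, so p-values may be too small.

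Each of the 23 arrays compared 1 pup, labelled with Cy5, with a pool of all samples labelled with Cy3, so a value is a log2 ratio of the pup to the pool, and 0 is the pool's level. Per array, 20603 to 24076 probes were well above background in Cy5. Precision is limited by how many pups were arrayed, and a typical feature (the median) had a standard error of diet difference of 0.082 in males and 0.079 in females (log2). Marker genes on the array were counted when well above background on every array. The counts were 12 of 14 for T cells, 10 of 10 for B cells and 10 of 12 for monocytes. For NK cells it was 6 of 9, and for platelets 7 of 8. Neutrophils had 8 of 13 and red cells 9 of 9, cells that a mononuclear fraction should largely lack. The array of CR female replicate 5 stood apart, with a median correlation of 0.066 with the other arrays over all features.

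The windows before the start sites of Dusp1 and Klf9, which correlated across pups, and of Fkbp5, whose correlation with them missed the threshold, are printed here as RefSeq gives them in build GRCr8. Each holds the 250 bases before the start site, read 5′ to 3′ on the gene's strand, and capitals mark TGACG on either strand, the half-site of the cyclic AMP response element. The Dusp1 window is chr10:17184603-17184852 (plus strand), the Klf9 window is chr1:230126396-230126645 (plus strand) and the Fkbp5 window is chr20:6543556-6543805 (minus strand).
Dusp1: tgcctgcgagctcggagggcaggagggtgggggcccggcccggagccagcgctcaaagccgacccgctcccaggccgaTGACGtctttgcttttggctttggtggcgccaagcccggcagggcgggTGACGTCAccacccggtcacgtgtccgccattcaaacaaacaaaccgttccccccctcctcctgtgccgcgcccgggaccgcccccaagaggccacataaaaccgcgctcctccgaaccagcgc
Klf9: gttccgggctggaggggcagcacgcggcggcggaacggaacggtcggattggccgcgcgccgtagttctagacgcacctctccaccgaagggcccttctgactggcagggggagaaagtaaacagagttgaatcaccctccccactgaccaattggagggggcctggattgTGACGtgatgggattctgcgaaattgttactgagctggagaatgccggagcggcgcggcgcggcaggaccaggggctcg
Fkbp5: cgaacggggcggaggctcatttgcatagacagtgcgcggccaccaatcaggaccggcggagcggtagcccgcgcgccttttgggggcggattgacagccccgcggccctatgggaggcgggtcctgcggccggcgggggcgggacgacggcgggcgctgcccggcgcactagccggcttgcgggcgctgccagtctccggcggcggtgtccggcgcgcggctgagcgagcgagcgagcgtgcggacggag

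The Dusp1 window held 3 matches of TGACG, of which the run TGACGTCA, the full palindromic cyclic AMP response element, begins 124 bases before the start. It also held the E-box CACGTG at 107 bases before the start. The Klf9 window held 1 TGACG, at 79 bases, with the FoxO site GTAAACA at 133 bases and an AP-1 site (TGANTCA) at 122 bases. The Fkbp5 window held none of the 8 motifs searched. Of 33469 rat promoter windows of this length, 18.2% held TGACG, 1.59% held TGACGTCA, 5.59% held CACGTG, 3.21% held GTAAACA and 6.34% held TGANTCA, all counted on both strands; TGACGTCA contains TGACG.

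An entry was found for 7 of the 9 genes, with 12 windows in all. Txnip and Zbtb16 had none, so Txnip, which correlated with Dusp1 and Klf9, could not be searched. Of the Tsc22d3 windows 1 held TGACG and GTAAACA, and the windows of Nr3c1, Sgk1 and Ddit4 held none of the 8 motifs. The palindromic glucocorticoid response element, a looser form of it with fewer set letters and its half-site AGAACA were in none of the 12 windows. They were in 0.012%, 0.373% and 17.5% of all windows. A match describes the letters only, and the absence of one says nothing of elements farther away.

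Nr3c1 encodes the receptor itself. On its brighter probe (chr18:32371932-32371991, minus strand, rn4, the build of the array design) the log2 ratios were -0.31, -0.07, -0.40, -0.17 and 0.08 in the 5 CR males, against a lowest of -0.25, a median of -0.10 and a highest of 0.02 in control males. CR females ranged over -0.16, -0.08 and 0.17 and control females over -0.32, -0.16 and 0.02 (lowest, median and highest). The 4 groups overlapped, and most pups of each lay below the pool. The diet difference, CR minus control, was -0.06 ± 0.08 in males and 0.10 ± 0.08 in females (log2, SE). The second Nr3c1 probe, printed as 10 spots on every array, gave -0.13 ± 0.06 in males and 0.03 ± 0.06 in females. The SD over its spots within an array was 0.0185 to 0.0968 on the log2 scale.

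Fkbp5 encodes the feedback chaperone. Its brightest probe (chr20:6637600-6637659, minus strand, rn4) read -0.70, 0.08, -0.19, 0.03 and 0.18 in CR males, against -0.06, 0.12 and 0.36 in control males (lowest, median and highest). In CR females it read -0.09, 0.13 and 0.47, against -0.08, 0.02 and 0.17 in control females. Of the 5 CR males, 2 lay below every control male and the other 3 among them. The difference was -0.25 ± 0.12 in males, a ratio of 0.843 with a 95% confidence interval of 0.706 to 1.01, and 0.10 ± 0.12 in females. The male value was -0.10 without CR male replicate 1, the lowest of its group, and -0.70 with median centring (adjusted p = 0.0898), or -0.51 relative to the median of all features under that setting. With all arrays and loess it missed the threshold in males, with an adjusted p of 0.706 (limma, Benjamini-Hochberg over all features) and an unadjusted p of 0.0587.

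All 3 Fkbp5 probes were tested one by one as a description. In males they gave -0.25 ± 0.12, -0.09 ± 0.06 and -0.52 ± 0.18 (SE) at the third probe, on chr20:6638283-6638342 (minus strand). The third probe had an unadjusted p of 0.00960 and an adjusted p of 0.62 in males (limma). On it CR males read -1.22, 0.39, -0.75, 0.06 and 0.16, against 0.10 to 0.43 in control males (lowest and highest). In females they gave 0.10 ± 0.12, 0.03 ± 0.06 and -0.03 ± 0.18. All 3 were negative in males, while in females their signs differed. The lowest CR males were replicates 1 and 3 at all 3 probes, so the probes share these pups. Within slides the male difference of the brightest probe ran between -0.88 and 0.03 over 4 slides, negative on 3 of them.

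Tsc22d3 encodes GILZ, a leucine zipper protein that carries part of the anti-inflammatory action of glucocorticoids. Its brighter probe (chrX:128336564-128336623, minus strand, rn4) read 0.04, -0.67, 0.12, -0.05 and 0.27 in CR males, against -0.68, -0.28 and 0.33 in control males. It read -0.69, -0.18 and -0.02 in CR females, against -0.84, -0.56 and -0.30 in control females. The CR groups centred above their controls in both sexes, but the pups of each pair of groups overlapped. With arrays centred on their median in place of loess, the male difference was -0.31, or -0.13 relative to the median of all features. The difference was 0.18 ± 0.17 in males and 0.27 ± 0.16 in females, with adjusted p-values of 0.852 and 0.995. The second Tsc22d3 probe had the other sign in both sexes, -0.13 ± 0.17 in males and -0.12 ± 0.16 in females, and correlated with the first by only 0.46 over the 23 arrays.

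Dusp1 encodes a phosphatase that switches off the stress kinases p38 and JNK. On its only probe (chr10:16944342-16944661, plus strand, rn4) CR males read 0.33, -0.33, 0.35, -0.02 and 0.75, against -0.18, 0.26 and 0.74 in control males. CR females read -0.82, -0.02 and 0.65, against -0.31, 0.17 and 0.89 in control females. Pups of both CR groups overlapped with their controls over most of the range. The difference was -0.05 ± 0.24 in males and -0.34 ± 0.23 in females, where it was negative on 5 of 6 slides. Without CR female replicate 5, which had the highest Dusp1 value of its group, the female difference was -0.48 (adjusted p = 0.859), without CR female replicate 4, the lowest, it was -0.19, and without control female replicate 3 it was -0.22. With scale normalization it was -0.04, with array quality weights -0.16.

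Sgk1 encodes a kinase that acts beside Akt and controls ion transport. On its only probe (chr1:23501718-23501777, minus strand, rn4) CR males read 0.95, -0.51, 0.63, -0.23 and 0.32, against -0.57, 0.18 and 0.84 in control males. CR females read -0.40, -0.12 and 0.31, against -0.80, -0.14 and 0.12 in control females. The SD was 0.60 in CR males and 0.50 in control males, and 0.26 in CR females and 0.35 in control females, and the groups overlapped. The difference was 0.09 ± 0.25 in males and 0.21 ± 0.24 in females. In males it was positive on 4 of 4 slides (0.06 to 0.90) and 0.20 with slide as a block (adjusted p = 0.869), and it ran from -0.09 without CR male replicate 1 to 0.27 without CR male replicate 2.

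Klf9 encodes a zinc finger repressor that responds to glucocorticoids and to thyroid hormone. On its brighter probe (chr1:226445625-226445684, plus strand, rn4) CR males read -0.83, -0.90, -0.14, -0.02 and 0.26, against -0.82, 0.02 and 0.17 in control males. CR females read -1.07, 0.03 and 0.25, against -0.88, -0.68 and -0.26 in control females. Of the 6 CR females, 4 lay above every control female and the other 2 did not. The difference was -0.15 ± 0.25 in males and 0.43 ± 0.24 in females, a ratio of 1.35 in females with a 95% interval of 0.959 to 1.90, an unadjusted p of 0.0829 and an adjusted p of 0.995.

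The second Klf9 probe, at chr1:226421727-226421786, gave -0.41 ± 0.20 in females and 0.03 ± 0.21 in males. The 2 probes correlated by 0.54 over the 23 arrays, while their diet differences had opposite signs in both sexes. No direction is given for Klf9 for that reason.

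**Figure D1:**
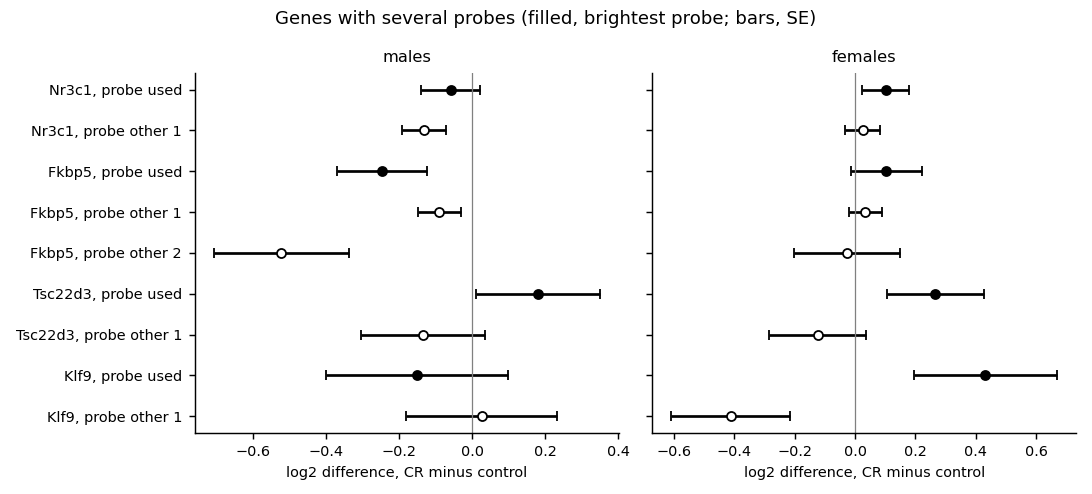
Log2 difference between CR and control pups (horizontal axis, SE bars) for every tested probe of the 4 genes with several probes, males on the left and females on the right; filled points are the brightest probe of each gene. The Fkbp5 probes run from -0.52 to -0.09 in males, and the pairs for Tsc22d3 and for Klf9 lie on opposite sides of 0 in both sexes.

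Zbtb16 encodes PLZF, a transcription factor of innate-like lymphocytes that glucocorticoids induce strongly in many cells. Its 2 probes were well above background on 1 and 0 of the 23 arrays. Their median Cy5 signals were 48.0 and 40.7, against a median local background of 28. The gene was not tested, and its level in these cells is bounded only as not well above background.

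Ddit4 (REDD1), the mTORC1 inhibitor, is induced by glucocorticoids, fasting and low oxygen. On its only probe (chr20:27253523-27253582, minus strand, rn4) CR males read -0.45, 0.41, -0.29, 0.12 and 0.17, against -0.33, 0.07 and 0.36 in control males. CR females read -0.33, 0.02 and 0.25, against -0.21, 0.04 and 0.36 in control females. The difference was -0.09 ± 0.15 in males and -0.09 ± 0.14 in females. The 4 groups overlapped, and both 95% intervals held 0.

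Txnip encodes an arrestin-like protein that responds to glucose. On its only probe (chr2:191360631-191360690, plus strand, rn4) CR males read 0.06, -0.18, 0.69, 0.53 and 0.63, against -0.38, 0.54 and 0.66 in control males. CR females read -0.68, 0.30 and 0.68, against -0.35, -0.05 and 1.00 in control females. Each group held pups above and below the pool. The difference was 0.01 ± 0.25 in males and 0.08 ± 0.24 in females, and the female value was -0.02 without CR female replicate 5.

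**Figure D2:**
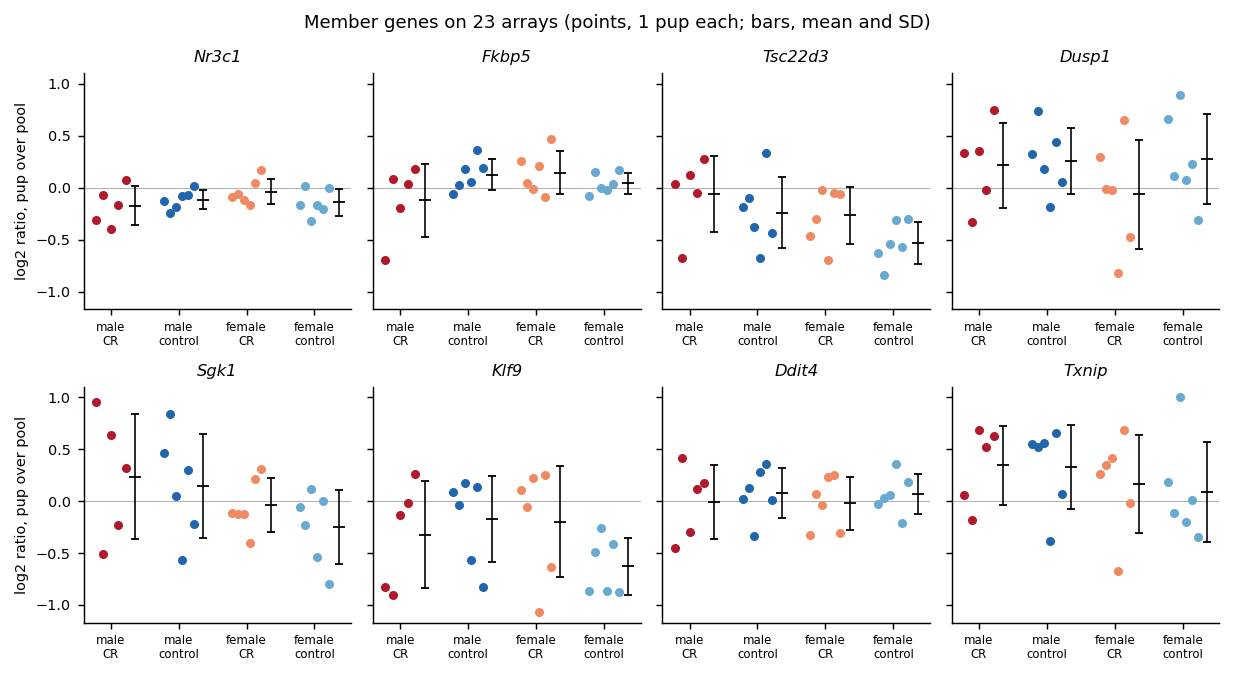
Log2 ratio of each pup to the pool (vertical axis) for the 8 tested genes in CR and control males and CR and control females; points are arrays and bars give the mean and SD. Groups overlap in every panel, and Nr3c1 spans 0.57 on the log2 scale over all arrays where Sgk1 spans 1.75.

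None of the 8 genes passed the test for diet in either sex. In males limma called 0 of 8 genes and 0% of 20755 features at an adjusted p under 0.05. At an unadjusted p under 0.05 it counted 0 of 8 genes on their brightest probes, against 7.19% of features. Over all 13 tested probes it counted 2 in males, the third of Fkbp5 and the second of Nr3c1, and 1 in females, the second of Klf9, with 0 called after adjustment in either sex. No share over all probes is given beside these probe counts, and the shares of features are from another set. In females the counts were 0 of 8 genes and 0% of features, and at an unadjusted p under 0.05 0 of 8 genes against 4.64% of features. For the mean of the sexes they were 0 of 8 and 0%, and unadjusted 0 of 8 against 7.35%. The genes' median difference was -0.05 in males and 0.10 in females, with 3 of 8 positive in males and 6 of 8 in females. With the second probes of Tsc22d3 and Klf9 in place of the first, 3 of 8 were positive in males and 4 of 8 in females. Median centring moved the median of all features by -0.18 in males. Relative to the median of all features under that setting, the male difference was -0.13 for Tsc22d3, 0.01 for Sgk1 and -0.32 for Txnip. The median over all features was -0.01 in males and 0.00 in females.

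The intervals say how large a difference could have been missed. Across the brightest probes of the 8 genes the 95% confidence intervals of the ratio, CR over control, reached from 0.629 to 1.52 in males and from 0.567 to 1.90 in females. Over all 13 tested probes the lowest bound was 0.535 in males, at the third Fkbp5 probe, and 0.566 in females. Among the brightest probes they were narrowest for Nr3c1, at 0.855 to 1.08 in males and 0.960 to 1.20 in females.

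**Figure D3:**
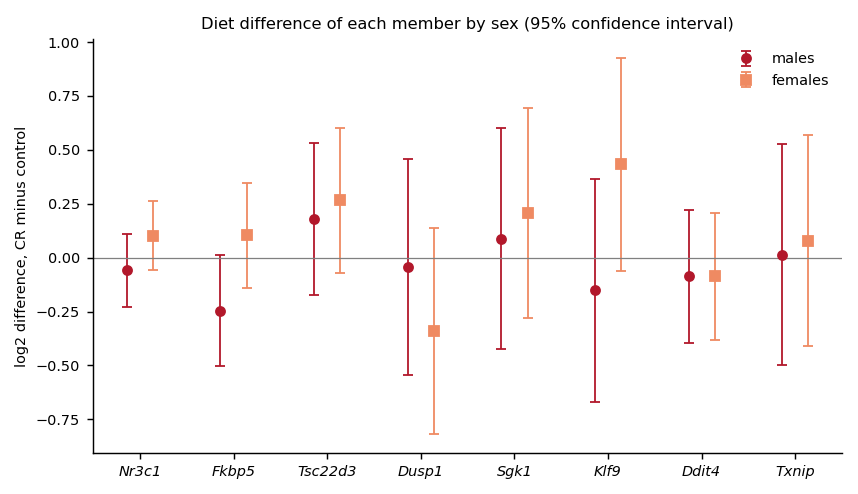
Log2 difference, CR minus control, of each gene in males (circles) and females (squares) with 95% confidence intervals. All 16 intervals include 0; the male Fkbp5 interval reaches 0.01 and the female Klf9 interval starts at -0.06.

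The diet difference was also compared between the sexes. limma called 0 of 8 genes and 0% of features for this difference, and at an unadjusted p under 0.05 counted 0 of 8 genes against 4.67% of features. The male difference minus the female difference was -0.35 ± 0.17 for Fkbp5 and -0.58 ± 0.34 for the brighter Klf9 probe (both adjusted p = 0.936), while the second Klf9 probe gave 0.44 ± 0.29. Averaged over diets, 0 of 8 genes differed between males and females, against 0.0578% of features called. Tsc22d3 gave 0.25 ± 0.12 for males minus females (log2, SE), with an unadjusted p of 0.0444 and an adjusted p of 0.674, which made 1 of 8 genes at an unadjusted p under 0.05 against 7.39% of features. The second Tsc22d3 probe gave 0.14 ± 0.12 for males minus females. Sgk1 gave 0.34 ± 0.17 (adjusted p = 0.693).

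The order of the 4 groups was examined between neighbours only, which are the closest groups by construction. When each gene's groups were ordered by their mean, none of the 24 neighbouring pairs differed by an exact two-sided permutation test after adjustment (lowest exact p = 0.0866, adjusted p = 0.952). That lowest p belonged to Tsc22d3 in CR females, whose mean was 0.27 above that of control females.

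Pups of the same group differed widely in most of these genes. The SD of log2 ratios around the group means was 0.43 for Dusp1, 0.44 for Sgk1, 0.44 for Klf9 and 0.44 for Txnip, at or above the 96.8th percentile of all tested features, whose median was 0.14. Tsc22d3 had an SD of 0.30, Ddit4 of 0.26 and Fkbp5 of 0.21. Nr3c1, at 0.13, lay at the 48.6th percentile. Over the 23 arrays the highest value exceeded the lowest 3.37-fold for Sgk1, 3.28-fold for Dusp1, 3.20-fold for Txnip and 1.48-fold for Nr3c1.

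The genes were also compared with each other from pup to pup. After group means were removed, 6 of the 28 pairs of genes correlated over the 23 arrays by a two-sided permutation test within groups (100000 resamples, adjusted over 28 pairs), and all 6 were positive. An r as far from 0 as the weakest of these was reached by 7 of the 28 pairs (25%), against 4.75% of all pairs of features. That cut was taken from the called pairs, so at least 6 had to reach it. Most features also varied less between pups than most of these genes, so the 2 shares are a description only. Dusp1 and Txnip had a Pearson r of 0.84 (p = 1e-05, the smallest the resamples can give, adjusted p = 0.00028) and a Spearman rho of 0.79 (adjusted p = 0.00098). Klf9 and Txnip had an r of 0.83 (p = 3e-05, adjusted p = 0.00042) and a rho of 0.84 (adjusted p = 0.00028). Without the 2 arrays farthest from the median these were 0.78 and 0.80. Both pairs were positive in each of the 4 groups.

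Dusp1 with Klf9 gave an r of 0.70 (p = 0.00094, adjusted p = 0.00658) and a rho of 0.64 (adjusted p = 0.0239). Dusp1 with Sgk1 gave an r of 0.68 (p = 0.00031, adjusted p = 0.00289) and a rho of 0.71 (adjusted p = 0.00392). Without the 2 farthest arrays their r was 0.60 and 0.68. Sgk1 with Txnip (r = 0.56, p = 0.00637, adjusted p = 0.0357) and Tsc22d3 with Txnip (r = 0.54, p = 0.00994, adjusted p = 0.0464) passed on r. They did not pass on rho, at 0.55 with an adjusted p of 0.0672 and 0.51 with an adjusted p of 0.0833, and without the 2 farthest arrays their r was 0.41 and 0.47. So 4 pairs passed on both measures, and they join Dusp1 to Txnip, Klf9 and Sgk1, and Klf9 to Txnip.

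Fkbp5, widely used as a glucocorticoid readout, had no correlation with these that passed. Its r was -0.03 with Tsc22d3, -0.31 with Dusp1, -0.42 with Sgk1, 0.03 with Klf9 and -0.10 with Txnip. Its closest member was Nr3c1, with an r of 0.58 and a rho of 0.57 that missed the threshold (p = 0.016, adjusted p = 0.0639 for r and 0.0662 for rho), and an r of 0.42 without the 2 farthest arrays. Ddit4 ran against Sgk1, with an r of -0.53 (p = 0.0295, adjusted p = 0.0876) and a rho of -0.47 (adjusted p = 0.168). As a description, the r of the 2 Klf9 probes was 0.83 and 0.76 with Txnip and 0.70 and 0.75 with Dusp1. For the 2 Tsc22d3 probes it was 0.54 and 0.59 with Txnip and 0.46 and 0.71 with Dusp1, of which 0.46 missed the threshold (adjusted p = 0.0876 by permutation). With the brightest Fkbp5 probe, the second probe of Tsc22d3 had an r of -0.52, of Klf9 -0.29 and of Nr3c1 0.73, none of them tested. The other Fkbp5 probes had an r of 0.39 and 0.43 with the brighter Nr3c1 probe. With the brighter Tsc22d3 probe they had 0.10 and -0.31.

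**Figure D4:**
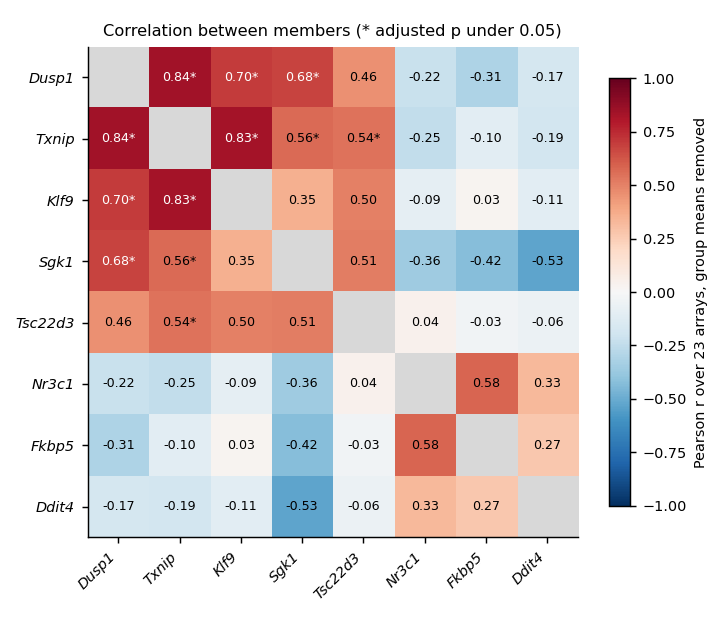
Pearson r between genes over the 23 arrays with group means removed (colour and number; asterisks mark an adjusted p under 0.05). The r among Dusp1, Txnip, Klf9, Sgk1 and Tsc22d3 lies between 0.35 and 0.84, and 6 of these pairs carry an asterisk; no pair with Nr3c1, Fkbp5 or Ddit4 does.

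A slide held at most 4 of the arrays, too few for a correlation within slides. With slide means removed beside group means the r of Dusp1 with Txnip was 0.84, of Klf9 with Txnip 0.82, of Dusp1 with Klf9 0.68 and of Dusp1 with Sgk1 0.66. Without CR female replicate 5 these were 0.82, 0.82, 0.67 and 0.68. None of the 8 genes correlated at the threshold with the number of probes above background or with the spread of an array's log2 ratios (lowest adjusted p = 0.623 over 16 relations). The first principal component of the within-group deviations held 20.1% of their variance over all features. Its r with Sgk1 was 0.74, with Dusp1 0.60, with Txnip 0.60, with Klf9 0.54, with Tsc22d3 0.40 and with Ddit4 -0.59, as a description.

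Blood cell composition was followed through the mean log2 ratio of marker lists. In such bulk samples fewer cells of a type and less RNA per cell cannot be told apart. Of 56 relations between 8 genes and 7 lists, 1 passed: Sgk1 with the mean of the platelet list. Its r was 0.81 (p = 1e-05, adjusted p = 0.00056) and its rho 0.87 (adjusted p = 0.00056), and r was 0.79 without the 2 farthest arrays, 0.81 with slide means removed and 0.80 without CR female replicate 5. The r of Sgk1 was above 0.5 with 7 of the 7 platelet genes tested, among them Pf4 (0.80), a platelet chemokine, Treml1 (0.82), a receptor of platelet granules, and Gp1bb (0.82), a subunit of the von Willebrand factor receptor. It was above 0.5 with 7.12% of all features.

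The platelet list's mean log2 ratio was -0.19 ± 0.85 in CR males and -0.11 ± 0.98 in control males (SD, n = 5 and 6), and -0.09 ± 1.31 in CR females and 0.37 ± 0.62 in control females (SD, n = 6 each). The B cell list ran the other way from Txnip (r = -0.63, rho = -0.55), Dusp1 (r = -0.61, rho = -0.52) and Klf9 (r = -0.55, rho = -0.55), with adjusted p-values of 0.0758, 0.0758 and 0.106 for r that missed the threshold and permutation p-values of 0.00305, 0.00406 and 0.00945. The B cell genes Blk and Cd79b had an r of -0.69 and -0.65 with Dusp1. With slide means removed the Dusp1 and Txnip relations passed (r = -0.65 and -0.66, adjusted p = 0.0346 each by permutation), as did Tsc22d3 with the neutrophil list (r = -0.70, adjusted p = 0.0346).

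With the means of the platelet and B cell lists removed beside group means, 2 of the 28 pairs passed. Klf9 with Txnip had an r of 0.76 (adjusted p = 0.00952 by permutation) and Dusp1 with Txnip an r of 0.66 (adjusted p = 0.0378). Dusp1 with Klf9 was 0.53 (adjusted p = 0.132), Dusp1 with Sgk1 was 0.43 (adjusted p = 0.306) and Sgk1 with Txnip was 0.17 (adjusted p = 0.758). This setting was chosen after seeing the data, as were the slide means and the array left out.

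**Figure D5:**
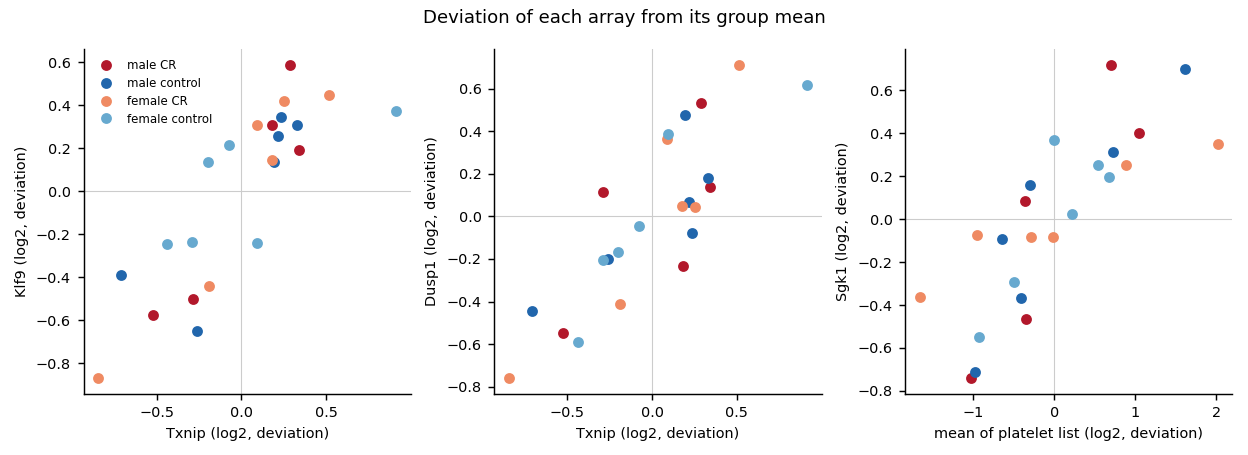
Deviation of each array from its group mean (log2, both axes) for Klf9 against Txnip, Dusp1 against Txnip and Sgk1 against the mean of the platelet list; points are pups, coloured by group. The r over 23 arrays is 0.83, 0.84 and 0.81, and pups of all 4 groups lie along each band.

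The marker lists held no gene called for diet in either sex. Of 10 B cell genes, 5 in males and 5 in females lay below control at an unadjusted p under 0.05, against 4.07% of features in males and 2.65% in females, with median differences of -0.40 and -0.31. The list's mean log2 ratio was -0.30 ± 0.29 in CR males and 0.11 ± 0.25 in control males (SD, n = 5 and 6), and -0.06 ± 0.20 in CR females and 0.20 ± 0.31 in control females (SD, n = 6 each). Median differences in males and females were 0.06 and -0.07 for T cells, 0.23 and 0.01 for NK cells, 0.10 and -0.19 for monocytes, 0.09 and 0.14 for neutrophils, -0.11 and -0.60 for platelets, and 0.79 and -0.33 for red cells. At the same unadjusted threshold, 3 of 9 NK cell genes in males and 1 in females lay above control, against 3.12% and 1.99% of features. In both sexes 0 lay below. Each of the other 5 lists had at most 1 gene on either side in each sex.

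Cell mix was also entered into the fit. With the T cell, B cell and monocyte list means as covariates, the female diet difference of Klf9 was -0.10 in place of 0.43, of Txnip -0.40 in place of 0.08 and of Dusp1 -0.68 in place of -0.34. In males Dusp1 was -0.46 in place of -0.05 and Klf9 -0.51 in place of -0.15, while Fkbp5 was -0.27 in place of -0.25. None passed the threshold in that fit (adjusted p = 0.725 to 0.995 in males and 0.995 to 0.997 in females).

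Genes whose deviations were most like those of each member were taken from 9842 named features, as a description. Dusp1 lay nearest to Cxcl2, a chemokine for neutrophils (r = 0.88), Dnaaf2 (0.87) and Fos, a subunit of the transcription factor AP-1 (0.86). Txnip lay nearest to Dusp1 (0.84), Klf9 (0.83) and Zfp36l2, an mRNA decay factor (0.82). Klf9 lay nearest to Txnip (0.83), Rab11fip2 (0.82) and Bcl2, an inhibitor of apoptosis (0.82). Sgk1 lay nearest to Odc1, the first enzyme of polyamine synthesis (0.91), Tmem18 (0.87) and Bambi (0.86).

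The remaining members had other neighbours. Fkbp5 lay nearest to Ammecr1l (0.85), Tob2 (0.84) and Rbm6 (0.84). Nr3c1 lay nearest to Phf10 (0.79), Tnfrsf4, also called OX40, a T cell costimulator (0.79), and Cog4 (0.78). Tsc22d3 lay nearest to Ppat (0.73) and Prim1 (0.68), and Ddit4 to Leng9 (0.82), Metap1d (0.82) and Def6 (0.81).

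Immediate early genes are transcribed soon after many kinds of signal reach a cell. Of 15 genes of that list with a value on every array, the r was above 0.5 for 10 with Dusp1, 9 with Sgk1, 9 with Txnip and 7 with Klf9, against 3.75%, 7.12%, 3.47% and 5.09% of all features. It was above 0.5 for 1 with Tsc22d3, 1 with Nr3c1, 0 with Fkbp5 and 0 with Ddit4, against 1.92%, 4.33%, 5.04% and 6.17% of all features. Fos had an r of 0.86 with Dusp1, Jun of 0.77 with Txnip, and Junb of 0.85 and Egr1 of 0.78 with Sgk1. For diet, 0 of 16 tested genes were called in males or females, with a median difference of -0.07 in males and -0.03 in females. At an unadjusted p under 0.05 in males, 2 lay above and 0 below control, against 3.12% and 4.07% of features. In females 1 lay above and 1 below, against 1.99% and 2.65%.

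Of 24 other genes induced by glucocorticoids, 8 had an r above 0.5 with Dusp1, 8 with Sgk1, 7 with Txnip, 4 with Klf9, 3 with Tsc22d3, 2 with Ddit4 and 0 with Fkbp5 or Nr3c1. The shares of all features with an r above 0.5 are those given for the immediate early genes. Cxcr4, the receptor that holds lymphocytes in bone marrow and is a known glucocorticoid target, had an r of 0.83 with Sgk1 and 0.79 with Dusp1. Zfp36 (tristetraprolin) had 0.80 and Nfkbia, the inhibitor of NF-kB, 0.75 with Sgk1, and the clock gene Per1 had 0.69 with Dusp1. Bcl6 ran the other way, at -0.69 with Txnip, as did Cebpd (-0.53 with Sgk1) and Anxa1 (-0.41 with Sgk1). Over the 24 genes the median r was 0.21 with Dusp1, 0.12 with Sgk1, 0.18 with Txnip and 0.05 with Klf9. Over all features it was -0.02, -0.02, -0.02 and -0.04. The heat shock chaperones that hold the receptor, Hsp90aa1 and Hsp90ab1, had an r of -0.76 and -0.69 with Ddit4, while Fkbp4 had 0.08 and Hsd11b1 0.62.

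The wider pathway lists showed no call for diet either. Of 18 tested genes of the receptor's chaperones, cofactors and hormone-converting enzymes, 0 were called, with median differences of -0.03 in males and 0.00 in females. Of 24 other induced genes 0 were called, with medians of 0.05 and 0.00. Of 19 FoxO and fasting genes 0 were called, with medians of 0.04 and 0.00, and at an unadjusted p under 0.05 in males 4 lay above and 1 below control, against 3.12% and 4.07% of features, and in females 1 above and 0 below, against 1.99% and 2.65%. Of 9 Txnip partners 0 were called (medians -0.04 and 0.02), of 13 genes around Ddit4 and mTORC1 0 (medians -0.04 and 0.02), and of 21 relatives of the members 0 (medians -0.02 and -0.09). At the same unadjusted threshold, 0 of the 21 relatives lay above and 6 below control in females, and 2 above and 0 below in males. Of the receptor's 18 genes, 0 lay above and 3 below in females, and 1 above and 2 below in males. The lists of other induced genes, of Txnip partners and around Ddit4 and mTORC1 had at most 1 gene on either side in each sex. The shares of features are those just given.

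Among 33 tested genes of these lists that are named by rule, the lowest adjusted p was 0.636 in males and 0.995 in females. Il7r, the interleukin-7 receptor of T cells, had a difference of 0.44 ± 0.17 in males (adjusted p = 0.650) and -0.04 ± 0.16 in females. Sgk3, a relative of Sgk1, had 0.26 ± 0.09 in males (adjusted p = 0.636) and -0.03 ± 0.08 in females. Foxo1, a fasting-responsive transcription factor, had -0.28 ± 0.12 in males (adjusted p = 0.680) and 0.00 ± 0.12 in females. Klf2, a factor of quiescent lymphocytes, had -0.06 ± 0.10 in males and -0.33 ± 0.10 in females (adjusted p = 0.995).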

How the data were processed

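Signals on the arrays, with 2 colours each, were extracted with Agilent Feature Extraction, version 10.5.1.1 according to the submitters' processing notes. For each spot the deposited scanner output gives the intensity of both channels before normalization. It also gives, per the file headers, a log10 ratio corrected for background and dye, and other columns of flags. A deposited table of log2 levels has a median of 7.23 in each column. How the authors centred and normalized it is not given in the sources used here, and it served as an alternative only.

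Mean signals were corrected with normexp on the median local background (offset 50) and normalized by loess within arrays with limma 3.58.1 in R 4.3.3, giving log2 ratios of Cy5 to Cy3. Outlier spots were set to missing and spots of a probe averaged. A probe was kept when Cy5 was well above background on at least 50% of the arrays of 1 group or more (23693 of 41012 probes), and where a gene had several, the brightest on average stood for it, which gave 20755 features. Names were taken from RefSeq (GRCr8) or else from the scanner files, and probe positions from the design's rn4 coordinates. One fit of the means of the 4 groups gave the contrasts, with Benjamini-Hochberg adjustment over all features at 0.05. Prior degrees of freedom were 3.41. The fit was tested on simulated data.

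Correlations used deviations from group means on 23 arrays with 100000 permutations of arrays within groups in Python 3.11.15 (scipy 1.17.1). The genes named are every member, 37 genes of the pathway lists given in any case (4 of which were not tested), list genes called, and the 3 named genes most like each member. For Tsc22d3, 1 of these is not reported here. Members and lists were chosen with earlier results of these data known. Alternatives covered background correction, normalization, channel, value table, filters, probe choice, array weights, slide and replicate blocks, cell mix covariates and leaving out arrays. Some of the CR females shared a dam, and nothing says whether pups of the other groups came from separate litters.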

Additional observations from a re-analysis of the deposited data

How the results depend on the processing

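None of the 8 genes passed for diet under any of 36 other settings, 23 of which leave out 1 array. Their lowest adjusted p (limma) over the settings was 0.0898 for males and 0.315 for females, with 0.259 for the sexes averaged. Litter was not recorded, and the precision is limited by 5 or 6 arrays a group. Replicate numbers were not taken as pairs, since the median correlation of same-numbered pups was 0.085. With the replicate block 1 feature was called in males in place of 0, and no call of a member changed. Array quality weights called 2 features for the mean of the sexes, and probes above background on all arrays left 6 in place of 12 for sex. Leaving out 1 array gave 0 to 4 features in males, 0 to 3 for the mean and 10 to 12 for sex; the 4 and the 3 came without CR male replicate 2. Pairs of genes called numbered 10 with slide means removed and 2 with the platelet and B cell list means removed, in place of 6. Relations with marker lists numbered 4 with slide means removed, in place of 1. These last 3 settings were chosen after seeing the data.

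Signs that turned belonged to differences near 0 or to a few settings, and the cause was not tested. Median centring moved the median of all features by -0.18 in males and gave Tsc22d3 -0.31, Sgk1 -0.18 and Txnip -0.50 there. For the mean of the sexes it gave Nr3c1 -0.16, Tsc22d3 -0.015, Klf9 -0.088 and Txnip -0.20. Cell mix covariates gave Tsc22d3 -0.0085, Sgk1 -0.12 and Txnip -0.42 in males. In females they gave Tsc22d3 -0.16, Sgk1 -0.16, Klf9 -0.095, Ddit4 0.072 and Txnip -0.40. For the mean they gave Nr3c1 -0.024, Tsc22d3 -0.0840, Sgk1 -0.14, Klf9 -0.30 and Txnip -0.41. Scale normalization gave Sgk1 -0.00787 in males, Ddit4 0.044 in females, and Nr3c1 -0.015 and Ddit4 0.0034 for the mean. The slide block gave Dusp1 0.060 in males. Txnip in males was -0.0031 with the scanner software's ratio, -0.022 in the deposited value table and -0.046 with the replicate block. Without the array that stood apart Txnip was -0.025 in females and -0.00600 for the mean. Nr3c1 for the mean was -0.00465 from Cy5 alone, -0.016 from the mean of all probes and -0.012 with weights, and Klf9 from the mean of all probes was -0.027. The r of Fkbp5 with Tsc22d3 was 0.45 with median centring, 0.0031 from Cy5 alone, 0.016 without CR female replicate 5 and 0.13 with marker means removed. Leaving out 1 array gave -0.18 to 0.092 for Dusp1, -0.091 to 0.27 for Sgk1, -0.19 to 0.023 for Ddit4 and -0.13 to 0.14 for Txnip in males, and -0.025 to 0.26 for Txnip in females. For the mean it gave -0.0096 to 0.050 for Nr3c1, -0.11 to 0.00092 for Fkbp5 and -0.026 to 0.14 for Txnip.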
